A study of Mus musculus with 15 samples.

Results

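The responses of 10 genes were examined as candidate targets of STAT5 in the response of Ba/F3-beta cells to interleukin 3 (IL-3): Tnfrsf13b, C3ar1, Lgr4, Trio, Enah, Lama5, Kazn, Hbegf, Slfn2 and Tox. They are 10 of 15964 genes with a symbol on 3 Affymetrix designs for the mouse, named U74A, U74B and U74C. They were chosen by the measured values themselves: in each, at least 1 probe set had a signal 2-fold or more higher with IL-3 and 2-fold or more lower with Stat5 siRNA at the same time. Those 2 ratios are therefore given as a description, and support nothing. Outside the 2-fold rule are the other time point and the genes related to the 10. Further probe sets of the same genes are outside it too, but they read the same cells at the same time. At 2 h 17 other genes with a symbol met the rule. What else singled out the 10 is not given here, and they were chosen with earlier results of these data known. None of these readings is therefore known to be independent of the choice.

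Ba/F3-beta is a mouse pro-B cell line that depends on IL-3. All cells carried an siRNA. The control groups had the scrambled siRNA called scramble I and were left unstimulated or given IL-3 for 30 min or 2 h. The knockdown groups had siRNAs against both Stat5A and Stat5B and were given IL-3 for 30 min or 2 h. A group with Stat5 siRNA and no IL-3 was not analysed here, so a lower level before IL-3 and a smaller response to it cannot be told apart. Each of the 5 conditions had 1 array per design, 15 in all, so no value has a replicate and no test gives a p-value. Precision is limited by having single arrays. Whether the 3 designs received RNA of the same culture is not given in the sources used here.

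IL-3 binds a receptor made of an alpha chain and a common beta chain, which carry JAK2. The kinase phosphorylates STAT5A and STAT5B, which pair, enter the nucleus and bind the motif TTCNNNGAA near genes such as Cish. The products of the 10 genes have varied roles and none is a core part of that pathway. Tnfrsf13b and C3ar1 encode cell surface receptors of the immune system, Lgr4 a receptor for R-spondins, Hbegf a growth factor, Lama5 a laminin chain, Trio and Enah regulators of the actin cytoskeleton, Kazn a protein of cell junctions, Slfn2 a Schlafen protein and Tox a nuclear protein with an HMG box.

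Promoter sequences of 4 of the genes are shown because their profiles carry most of what follows. Tnfrsf13b and C3ar1 had signals under the unstimulated one on both siRNA arrays. For Tnfrsf13b the difference at 30 min was only 1.04-fold, and for C3ar1 all 3 of these signals were below the measured range. Lgr4 and Enah followed one another closely, which their choice at 2 h favours. A stretch at the start site of Cish, the best known STAT5 target, stands beside them. Sequences and start sites are RefSeq's, on GRCm38.p6. Each promoter stretch holds the 150 bases before the annotated start, 5′ to 3′ on the strand of the gene, and capitals mark every TTC and GAA, the 2 ends of the motif. They lie at chr11:61126605-61126754 on the plus strand (Tnfrsf13b), chr6:122856158-122856307 on the minus strand (C3ar1), chr2:109917497-109917646 on the plus strand (Lgr4) and chr1:182019981-182020130 on the minus strand (Enah). The Cish stretch of 26 bases lies at chr9:107296656-107296681 on the plus strand.
Tnfrsf13b: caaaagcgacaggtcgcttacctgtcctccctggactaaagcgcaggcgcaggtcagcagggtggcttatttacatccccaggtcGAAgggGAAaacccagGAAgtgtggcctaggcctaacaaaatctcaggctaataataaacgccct
C3ar1: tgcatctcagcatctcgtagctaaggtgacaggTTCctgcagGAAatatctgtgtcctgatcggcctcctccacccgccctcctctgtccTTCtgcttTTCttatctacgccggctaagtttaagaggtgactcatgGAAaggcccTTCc
Lgr4: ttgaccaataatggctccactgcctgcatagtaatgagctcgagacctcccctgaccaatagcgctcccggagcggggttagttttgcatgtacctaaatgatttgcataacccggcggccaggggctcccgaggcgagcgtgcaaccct
Enah: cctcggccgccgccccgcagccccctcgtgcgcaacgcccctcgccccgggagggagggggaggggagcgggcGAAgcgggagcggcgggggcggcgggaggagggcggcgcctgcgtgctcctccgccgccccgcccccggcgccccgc
Cish: gttTTCctgGAAagTTCttgGAAatc

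The motif TTCNNNGAA reads the same on both strands and was searched in the whole RefSeq window of each gene, 250 bases before to 50 after the start. Of all 32851 windows 8.3% held it. Cish held 2 matches, both visible above. The 8 genes with a window (all but Hbegf and Tox) had 9 windows, 2 of them for Kazn, and 0 held a match. These letters are not in these windows, which says nothing about sites elsewhere. The windows of Socs1 and Pim2, named below as known targets, held 0 as well.

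The knockdown was partial by RNA signal, and protein is not read by these arrays. The brighter Stat5a probe set on U74A had a signal of 543 unstimulated, 548 and 475 with control siRNA at 30 min and 2 h, and 277 and 255 with Stat5 siRNA, which left 50.6% and 53.6% of control. The U74B probe set of Stat5b had 536, 499 and 177, and 166 and 126 with siRNA, which left 33.2% and 71.3%. Its control signal was itself 1.60 lower in log2 at 2 h than unstimulated. The dimmer Stat5a probe set, also on U74A, had 47.6% of control left at 30 min and 38.1% at 2 h, when its siRNA signal was under 119.866. Both Stat5a probe sets can cross-hybridise. The U74A probe set of Stat5b did not exceed 73.2 on any array. Among markers of the labelled cell type, the beta chain genes Csf2rb and Csf2rb2, the alpha chain gene Il3ra, Ptprc and Cd79b reached the floor, the signal of 119.866 under which a value was treated as not measured. The other 11 of the 16 pro-B and B lineage markers on the arrays, Cd79a, Vpreb1, Igll1, Pax5, Ebf1 and Rag1 among them, did not. Of fibroblast and epithelial markers 3 of 12 reached it (Cdh1, Col1a2 and Epcam), and their list's summed signal lay between 992 and 1146 over the 5 conditions. Of myeloid and mast markers 3 of 15 reached it (Csf3r, Gata2 and Ms4a2), and of T and NK markers 1 of 8 (Nkg7). Erythroid and megakaryocyte markers had higher sums with the siRNA, and 6 of 8 reached the floor. Their summed signal was 5133 unstimulated, 4689 and 3914 with control siRNA at 30 min and 2 h, and 6651 and 6099 with Stat5 siRNA. Most of each sum was Itga2b, with 2908 in control and 4168 in siRNA cells at 2 h. Of the 8, Alas2 and Pf4 were under the floor on all arrays, and Hba-a1 had a log2 siRNA ratio of 1.39 at 2 h. At 30 min Epor (-0.13) and Gp9 (-0.32 or lower) went the other way. The median ratio at 2 h was 0.47 over the 4 erythroid and megakaryocyte markers measured and -0.19 over 4 pro-B and B lineage markers. Their part in the values below was not tested. Arrays of 1 design correlated between 0.899 and 0.977. Between probe sets of 1 gene, a log2 siRNA ratio at 2 h had an SD of 0.22 on U74A, 0.25 on U74B and 0.36 on U74C, which is the only measure of error here. Probe sets of 1 design share their arrays. This SD therefore leaves out variation between arrays, cultures and transfections, and a ratio beyond it may still lie within that variation.

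The 10 genes had 30 probe sets, 18 of which reached the floor on at least 1 array. Before any ratio, a signal below that level was set to it. Where this touched 1 of the 2 signals, the ratio of the signals as recorded can only be larger, which is written "at least". That bound does not cover the error of single arrays. At 2 h, 10 probe sets of 9 genes met the selection, among 32 of 12835 probe sets (0.249%). At 30 min only Tox did, among 17 of 12772 (0.133%). By gene, the median over its measured probe sets, 8 of 10 were 2-fold or more higher with IL-3 at 2 h, against 2.45% of all genes, and 7 of 10 were 2-fold or more lower with Stat5 siRNA, against 0.43%. Nothing is read from these counts, which the choice fixed. The 3 not called were Enah, whose median fell just short of 2-fold, Hbegf (-0.89 in log2 or lower) and Tox (-0.02). The Hbegf value is a bound, since the siRNA signal behind it was under the floor. From the recorded signals its median was -1.05, beyond 2-fold, so Hbegf was not measured as falling short.

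**Figure D1:**
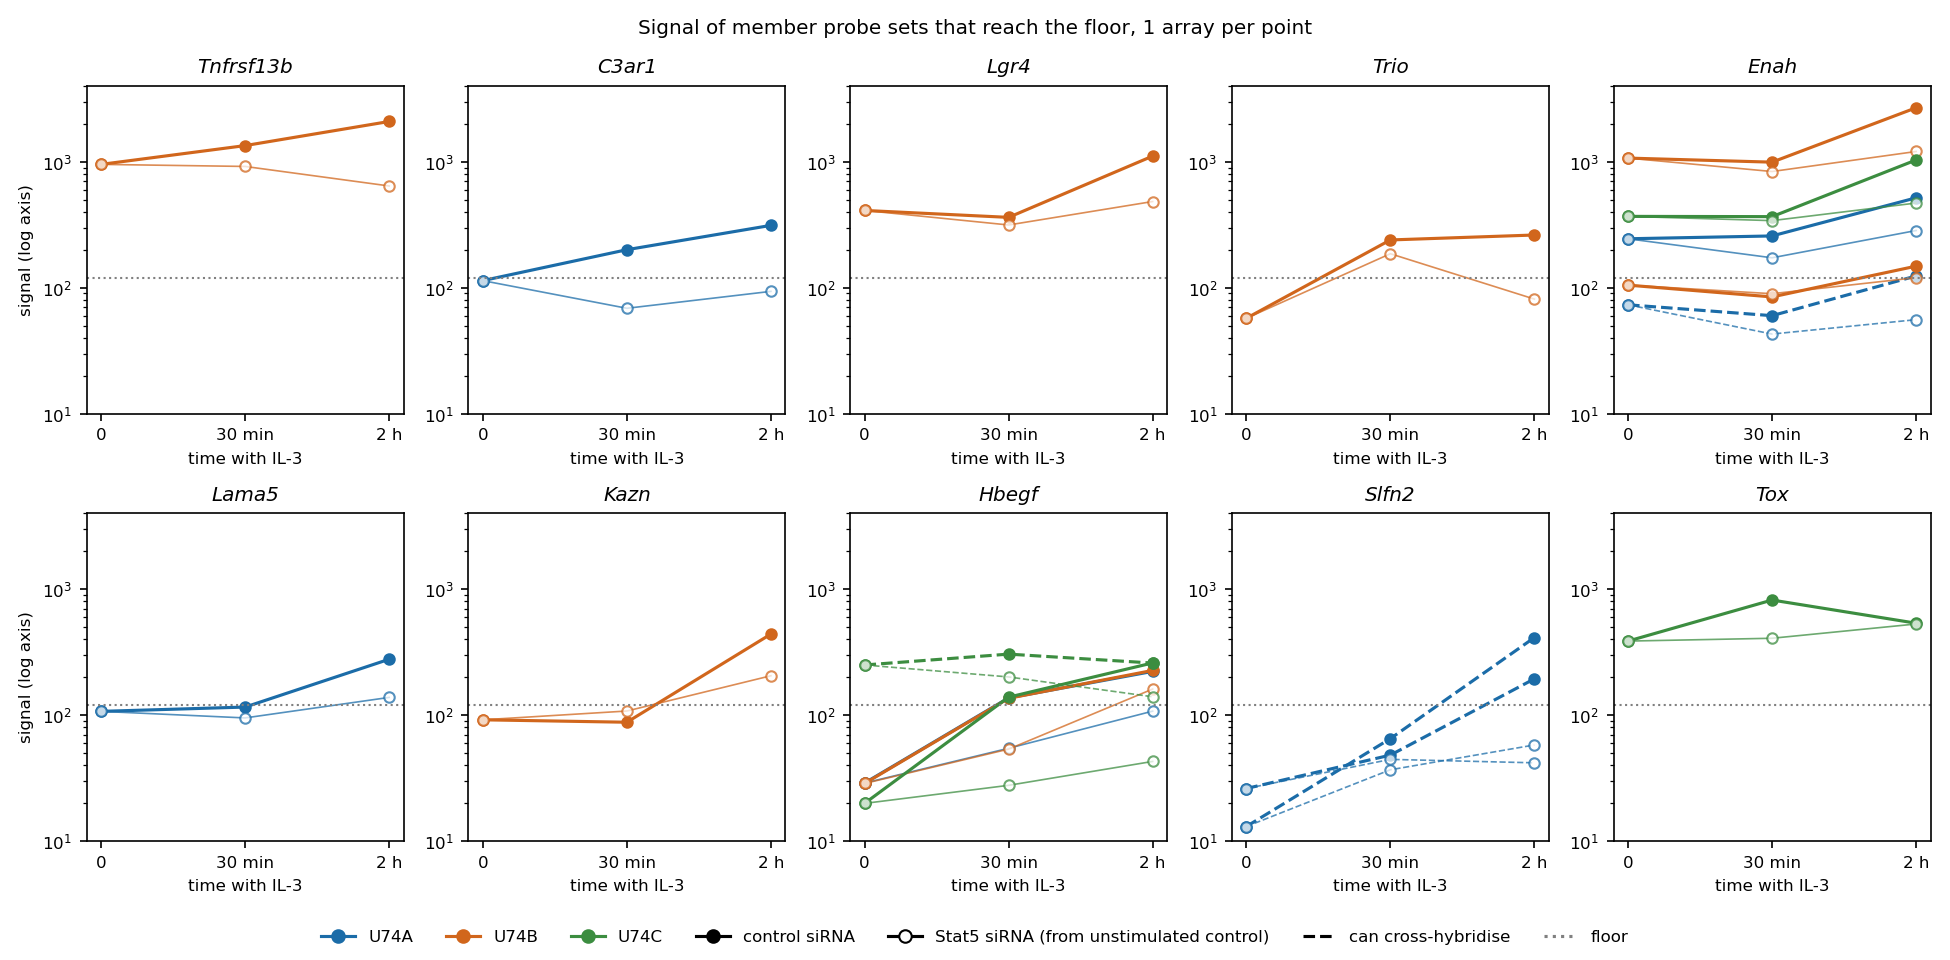
Signal (log axis) of each probe set that reached the floor, against time with IL-3, 1 array per point. Filled points are control siRNA and open points Stat5 siRNA, both drawn from the unstimulated control array. Colours are the array designs, dashed lines probe sets that can cross-hybridise, and the dotted line the floor of 119.866. In 9 genes the control line ends above the siRNA line at 2 h, and in Tox the lines part at 30 min and meet again at 2 h.

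Of the 2 immune receptors, Tnfrsf13b, a receptor for BAFF and APRIL known as TACI, was read by 1 probe set on U74B. Its signal was 954 unstimulated, 1345 and 2091 with control siRNA at 30 min and 2 h, and 918 and 643 with Stat5 siRNA. The control signals climbed at both times. Both siRNA signals lay under the unstimulated one, at 30 min by only 1.04-fold and at 2 h by 1.48-fold. IL-3 gave 2.19-fold at 2 h, and the siRNA signal was 1.46-fold lower at 30 min and 3.25-fold lower at 2 h. The 2 siRNA ratios share no array. With arrays brought to a common median instead, the IL-3 ratio at 2 h was 0.95 in log2, short of 2-fold, and the siRNA ratio -1.65.

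C3ar1, the receptor for complement fragment C3a, was read by 1 probe set on U74A. Its signal was 114 unstimulated, 200 and 313 with control siRNA, and 68.6 and 93.5 with Stat5 siRNA. Only the 2 control arrays with IL-3 reached the floor. At 2 h the signal was at least 2.61-fold higher with IL-3 and at least 2.61-fold lower with siRNA. At 30 min the siRNA ratio was at least 1.67-fold lower, and its sign there was set by which array reached the floor. Both siRNA signals were under the floor, so no larger ratio can be read from them.

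Lgr4, a receptor that strengthens Wnt signalling when bound by R-spondins, had 1 probe set over the floor, on U74B. Its signal was 411 unstimulated, 362 and 1110 with control siRNA, and 315 and 484 with Stat5 siRNA. Only the control array at 2 h stood apart. The rise at 2 h was 2.70-fold, and the siRNA signal was 2.30-fold lower. At 30 min the siRNA ratio was -0.20 in log2, about the SD of 0.20 between probe sets of a gene on U74B. The Lgr4 probe set on U74C stayed under the floor on all 5 arrays, with a highest signal of 70.7.

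Enah, a protein of the Ena/VASP family that promotes actin filament growth, gave the widest reading, with 7 probe sets on 3 designs, 5 of them over the floor. The brightest, on U74B, had 1070 unstimulated, 993 and 2687 with control siRNA, and 837 and 1208 with Stat5 siRNA. The U74C probe set had 368, 367 and 1034, then 341 and 470. On U74A the values were 245, 258 and 518, then 173 and 284. In all 3 the control signal at 30 min was close to the unstimulated one, and that at 2 h was above every other array.

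IL-3 gave Enah 2.51-fold on U74B, 2.81-fold on U74C and 2.12-fold on U74A at 2 h. The siRNA signal was 2.22-fold, 2.20-fold and 1.82-fold lower, so the first 2 met the selection and the third fell short. The fourth probe set, dim and on U74B, had 105, 84.4 and 148, then 89.6 and 120, with an siRNA ratio of -0.30. The fifth, on U74A and of a kind that can cross-hybridise, reached the floor only on the control array at 2 h (124). All 5 were lower with siRNA, and all 5 were higher with IL-3. At 30 min the 3 bright probe sets were lower with siRNA by 0.58 in log2 on U74A, 0.25 on U74B and 0.11 on U74C.

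Trio, a guanine nucleotide exchange factor, was read by 1 of 4 probe sets, on U74B. Its signal was 57.1 unstimulated, 239 and 262 with control siRNA, and 186 and 81.2 with Stat5 siRNA. Unlike Enah and Lgr4, it was already high at 30 min, at least 2.00-fold, just short of the threshold before rounding. With siRNA 70.7% of that rise was still there at 30 min and 11.7% at 2 h, when the signal was at least 2.19-fold lower. The other 3 Trio probe sets stayed under the floor, with a highest signal of 112. With the floor halved they counted as measured, and the median for Trio was then 0.29 with IL-3 and -0.68 with siRNA at 2 h, both short of 2-fold, so the reading rests on 1 probe set that the dim ones did not match in size.

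Lama5, a laminin chain of basement membranes, had 107 unstimulated, 116 and 278 with control siRNA, and 95.1 and 138 with Stat5 siRNA on U74A. The control array at 2 h stood above the rest, and the siRNA array at 2 h was the only other over the floor. The IL-3 ratio was at least 2.32-fold and the siRNA ratio 2.01-fold, the nearest to the threshold from inside among those selected at 2 h.

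Kazn, which encodes the junction protein kazrin, had 91.9, 87.9 and 441 with control siRNA, and 108 and 206 with Stat5 siRNA on U74B. Only the 2 arrays at 2 h reached the floor, and the IL-3 ratio there was at least 3.68-fold. The siRNA signal was 2.14-fold lower at 2 h, and 32.6% of the rise was left. A different Kazn probe set on the same design did not exceed 9.63 on any array.

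Hbegf, a ligand of the EGF receptor, was the gene on which 3 designs agreed from dim signals. The U74A probe set had 28.9 unstimulated, 137 and 223 with control siRNA, and 54.6 and 108 with Stat5 siRNA. The U74B probe set had 28.7, 136 and 227, then 53.8 and 161. The selected U74C probe set had 19.9, 139 and 260, then 27.7 and 42.9. All 3 were over the floor at 30 min in control cells and under it in siRNA cells at that time.

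At 2 h the Hbegf siRNA signal was at least 1.86-fold lower on U74A, 1.41-fold on U74B and at least 2.17-fold on U74C, so the 3 differed in size and not in direction. At 30 min the siRNA signals were under the floor on all 3, so each ratio is only a bound, at least 1.14-fold lower on U74A and on U74B and at least 1.16-fold on U74C. A U74C probe set that can cross-hybridise had 250 unstimulated, 306 and 260 with control siRNA, and 201 and 140 with Stat5 siRNA. It was 1.85-fold lower with siRNA at 2 h, but its IL-3 ratio was 0.05 in log2. One more U74C probe set stayed under the floor.

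Slfn2, a Schlafen protein of immune cells, was read only by 2 U74A probe sets that can cross-hybridise. The selected one had 13.04 unstimulated, 65.1 and 414 with control siRNA, and 36.8 and 58.0 with Stat5 siRNA. The other had 26.2, 48.2 and 194, then 44.6 and 41.9. In both, the control array at 2 h was the only one over the floor. The siRNA ratios at 2 h were at least 3.45-fold and at least 1.62-fold lower. Interferon induces Schlafen genes. In the same comparison the 25 measured interferon response genes had a median log2 ratio of 0.71, against 0.0040 for all genes. Of the 25, 0 lay below 0, against 49.5% of all genes, so they went the other way from Slfn2. Their part in the Slfn2 value was not tested.

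Tox, a nuclear protein known from T cell development, was selected at 30 min and not at 2 h. Its U74C probe set had 388 unstimulated, 822 and 538 with control siRNA, and 408 and 530 with Stat5 siRNA. The control array at 30 min alone was high. The ratios that selected it were 2.12-fold and 2.01-fold, and the siRNA ratio at 2 h was -0.02 in log2. With quantile scaling the siRNA ratio at 30 min was -0.98, short of 2-fold. The Tox reading rests on a single array of the design with the widest spread between probe sets, and the other 3 Tox probe sets had no signal above 13.1.

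How much of the IL-3 rise was left at 2 h was set out from the signals as measured, without raising them to the floor. It came to -27.4% for Tnfrsf13b and -10.2% for C3ar1, both below the unstimulated signal, which for C3ar1 was itself under the floor. For Enah it was 8.5%, 15.3% and 14.6% on the 3 bright probe sets, for Lgr4 10.4%, for Slfn2 11.2% and 9.33%, for Trio 11.7%, and for Lama5 18.2%. Higher shares were left for Kazn (32.6%), the dim Enah probe set on U74B (35.2%) and Tox (94.9%). Hbegf spread from 9.58% on U74C to 40.6% on U74A and 66.9% on U74B. Of known targets, Cish (36.9%), Pim2 (35.4%), Bhlhe40 (30.4%) and Socs1 (24.2%) lay within the range of the 10 genes. Cish, Pim2 and Bhlhe40 met the 2-fold rule at 2 h and Socs1 at 30 min, so they do not stand for known targets at large. Others stayed closer to control at 2 h. Bcl2l1 had 512 in control and 372 in siRNA cells, Id1 911 and 713, Pim1 1047 and 1022, and Dusp5 1593 and 888. The choice of the described genes at 2 h keeps their shares low. An unstimulated signal under the floor, as in 6 of them, makes the shares imprecise. Relative to the unstimulated control, 0 of 7 measured genes were 2-fold or more higher in Stat5 siRNA cells at 2 h, against 2.41% of all genes. C3ar1, Trio and Slfn2 were under the floor on both arrays. With signals taken as measured, Kazn (1.16 in log2) and Hbegf (2.49) passed 2-fold there.

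Agreement between probe sets could be read in few of the genes. At 2 h, 3 of the 10 genes (Enah, Hbegf and Slfn2) had measured probe sets beyond the selected ones, 7 in all. All 7 were lower with siRNA, from -0.89 to -0.05 with a median of -0.70, and 4 were lower by 1.5-fold or more. In 3 of the 7, 1 of each gene, the control array at 2 h was the only one over the floor of the 3 arrays that these ratios use, which sets their signs. Of the 17 other genes with a selected probe set, 7 had further measured probe sets, 11 in all. Only 4 of these were lower with siRNA, 1 by 1.5-fold or more, with a median of 0.14. In Fundc1, Haus3, Itgb1bp1, Rrp36 and Vps72 every further probe set lay above 0. The selected probe sets of Fundc1, Haus3, Itgb1bp1, Tcn2 and Vps72 are of a kind that can cross-hybridise, as is that of Slfn2, while those of Enah and Hbegf are not. All 7 of the other genes were selected on U74C, which gave 18 of the 32 selected probe sets but 2 of the 10 of the genes described here. Probe sets of 1 gene on 1 design share their arrays, and readings on different designs may share RNA. The difference between the 2 sets of genes was not tested. Both sets met the 2-fold rule, and what set the 10 apart is not given, so such agreement may have entered the choice. For Tnfrsf13b, C3ar1, Lgr4, Trio, Lama5, Kazn and Tox 1 probe set over the floor was all there was.

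**Figure D2:**
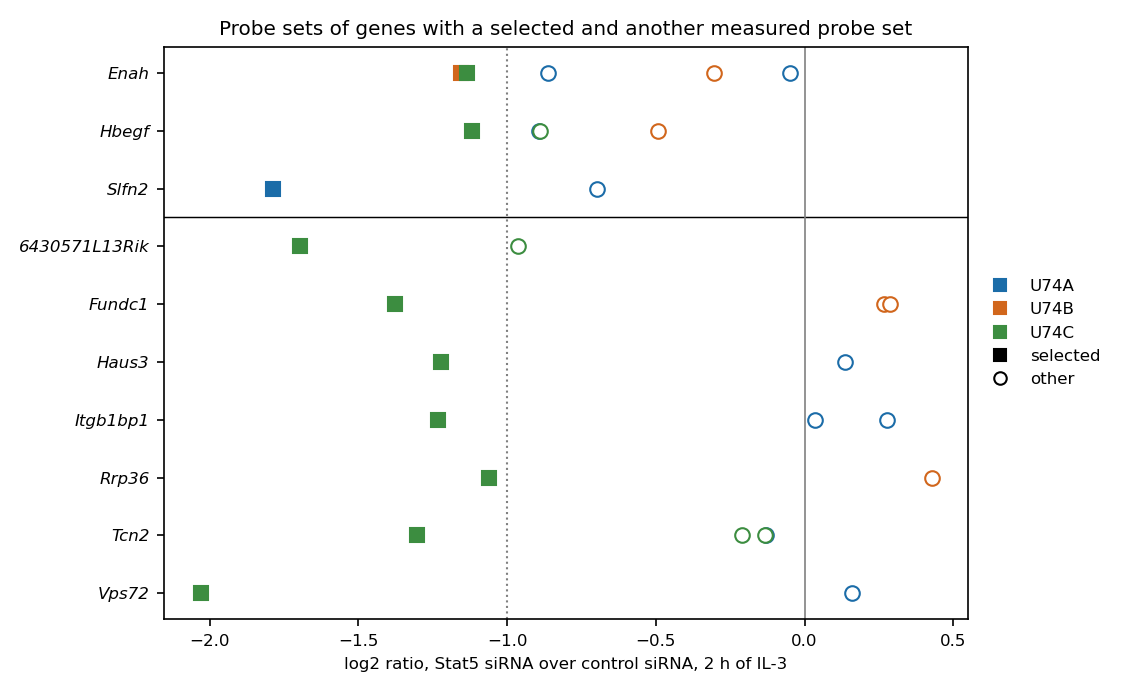
Log2 ratio of Stat5 siRNA over control siRNA at 2 h, 1 point per measured probe set, for every named gene with a selected and a further measured probe set. Squares are selected probe sets, open circles the others, colours the array designs, and the dotted line 2-fold lower. Above the horizontal line all 7 circles of Enah, Hbegf and Slfn2 lie below 0. Under it 7 of 11 circles lie above 0.

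The siRNA comparison at 30 min used arrays that played no part in the 2-fold rule at 2 h. Of the 9 genes selected at 2 h, 6 were measured there, and all 6 lay below 0: C3ar1 at -0.74 or lower, Tnfrsf13b at -0.55, Trio at -0.36, Enah at -0.25, Lgr4 at -0.20 and Hbegf at -0.19 or lower. None of the 6 reached 2-fold. Their median was -0.31, against 0.00081 for all 8124 genes measured, of which 49.9% lay below 0. Among the 187 other genes that IL-3 raised 2-fold or more at 2 h, 57.8% lay below 0, with a median of -0.037. Tnfrsf13b, C3ar1 and Trio exceeded 0.24, the SD over all designs between paired readings of a gene at 30 min, Enah lay close to it, and Lgr4 was inside it. Hbegf, known only as a bound, cannot be placed. The SD does not measure how repeat cultures would vary, so exceeding it does not show that a ratio would recur. For C3ar1 and Hbegf the control array alone reached the floor, which sets the sign. By gene, 1 of 7 measured at 30 min was 2-fold lower, the Tox that was selected there, against 0.382% of all genes. With IL-3 1 of 7 was 2-fold higher at 30 min, again Tox, against 0.711%.

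**Figure D3:**
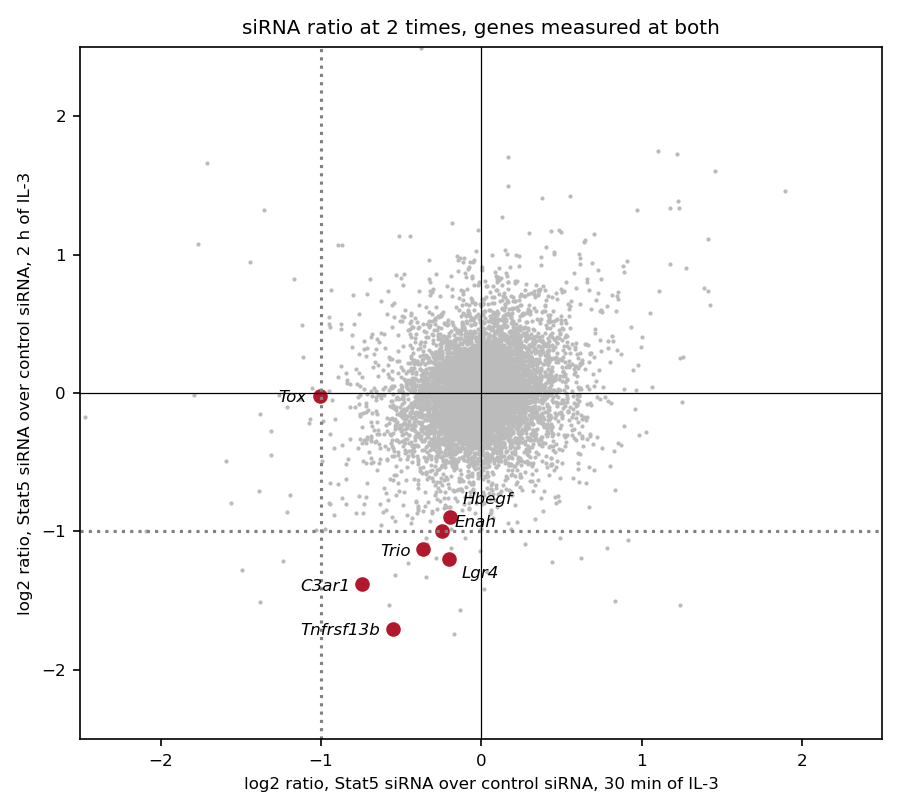
Log2 siRNA ratio at 30 min (horizontal) and at 2 h (vertical) for 7699 genes measured at both times, with the 7 of the described genes measured at both in red and 1 gene outside the axes. Dotted lines mark 2-fold lower. The 7 lie left of and below 0, Tox at -1.01 and -0.02, and the 6 others lower at 2 h than at 30 min.

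The change from 30 min to 2 h is given for both kinds of cells as a description, since choosing genes by the gap at 2 h favours a gap that widens. In control cells the log2 ratio of 2 h over 30 min was 1.62 for Lgr4, 1.22 for Enah, at least 1.88 for Kazn and at least 1.21 for Lama5, and in siRNA cells it was 0.62, 0.50, at least 0.78 and at least 0.21. Tnfrsf13b went up in control cells (0.64) and down in siRNA cells (-0.52). Trio had 0.13 in control cells and was down by at least 1.55-fold in siRNA cells. Tox, chosen at 30 min, went the other way, with -0.61 in control cells and 0.38 in siRNA cells. Hbegf on U74B had 0.74 in control cells and at least 0.43 in siRNA cells, and 1.59 there with the signal at 30 min taken as measured, when its gap was smaller at 2 h than at 30 min.

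The profiles of Lgr4 and Enah on U74B were each other's closest match on that design. Over their 4 log2 ratios to the unstimulated array, the root mean square difference was 0.07, the smallest among 4909 probe sets of other genes for Lgr4 and 4908 for Enah. The next gene for both was Gimap5, at 0.22 and 0.15, with signals of 322, 314 and 683 with control siRNA and 276 and 346 with Stat5 siRNA. For Lama5 the nearest was Crybg1 (0.02), though both had only the 2 h arrays, or these and 1 more, over the floor. For Tnfrsf13b it was Rbck1 (0.22), on a probe set that can cross-hybridise, and for C3ar1 Dvl1 (0.35), followed by Hbegf (0.37). For genes selected at 2 h, the ratios at 2 h follow from those that the rule used. A likeness there between 2 such genes, as Lgr4 and Enah, is therefore partly fixed by the choice. With 1 array per condition and many values at the floor, such likeness is a description.

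Genes related to the 10 by family or pathway were called about as often as genes at large. The 10 lists of relatives held 143 further genes, of which 59 were measured in the siRNA comparison at 2 h. Of these 0 were 2-fold higher and 0 lower, where 0.43% of all genes were lower. Their median was -0.025 against 0.0040 for all genes, and the lowest was Dvl1 (-0.79), an adaptor of Wnt signalling. With IL-3 at 2 h 2 of 65 were 2-fold higher, against 2.45% of all genes, and 0 lower, with a median of 0.053 against -0.033. Those 2 were Map3k14 (1.56), the kinase NIK that acts downstream of BAFF receptors, and Traf5 (1.32), an adaptor of TNF receptors. Both belong to the list around Tnfrsf13b.

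In that list the siRNA ratios at 2 h were -0.63 for Map3k14, -0.50 for Tnfrsf13c, the BAFF receptor, and -0.40 for Traf5. Tnfsf13b, which encodes BAFF, had 0.16 and Traf6 0.15. Without Tnfrsf13b the list's median was -0.29 over 6 genes, 4 of them below 0, against 49.5% of all genes. Of the other Schlafen genes, Slfn8 had 0.85 with IL-3 and -0.41 with siRNA, and Slfn9 0.01 and -0.44. Vasp, the relative of Enah, had 0.81 with IL-3 but 0.02 with siRNA. Erbb2, a receptor of the EGF family, had at least 0.95 with IL-3 and -0.73 with siRNA. Its unstimulated signal of 103 was under the floor, against 231 with IL-3, so the signals as recorded differ by over 2-fold. Among laminin receptors and chains Itgb1 had -0.63 with siRNA, and the list's median without Lama5 was -0.35 over 5 genes. Tox2 had -0.41 and Tox4 0.44. Of 3 complement genes other than C3ar1, Cd55 had -0.39 or lower. Its signals as recorded, 157 in control and 71.3 in siRNA cells, differ by over 2-fold, the second being under the floor. The lists around Lgr4, Trio and Kazn had medians without them of 0.03, -0.04 and -0.03.

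STAT5 targets known in blood cells gave a mixed picture of their own. At 2 h 8 of 14 measured were 2-fold higher with IL-3, against 2.45% of all genes, and 3 of 15 were 2-fold lower with siRNA, against 0.43%: Cish (-1.28), Bhlhe40 (-1.21) and Pim2 (-1.05). Pim1 (-0.06), Id1 (-0.35) and Bcl2l1 (-0.46) were among those that were not. The list's median of -0.10 stood beside -1.11 for the 10 genes, whose choice sets that value. At 30 min 3 of 13 were lower, against 0.382%: Cish (-1.49), Bhlhe40 (-1.24) and Socs1 (-1.21 or lower).

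**Figure D4:**
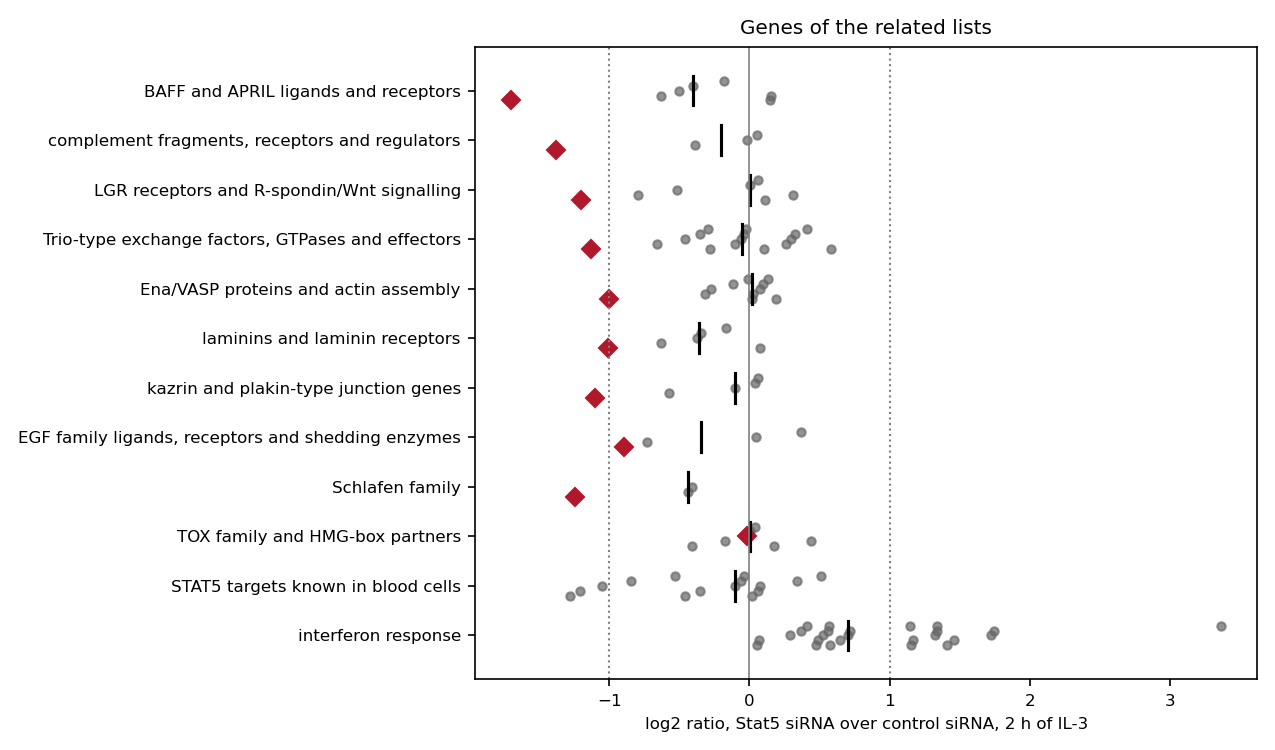
Log2 ratio of Stat5 siRNA over control siRNA at 2 h for each measured gene of 12 lists, with the 10 described genes as red diamonds, other genes as grey circles and the list's median as a black bar. Dotted lines mark 2-fold. In the first 9 lists the diamond is the lowest point, as its choice at 2 h would give, no circle of the first 10 lists passes 2-fold, and every circle of the interferon list lies above 0.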

How the data were processed

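The authors deposited linear intensity values, 1 signal per probe set and array, computed with MAS5 per the submitters' processing notes; its version, background and scaling settings are not given in the sources used here. Scaling brought all 15 arrays to the same trimmed mean, with 2% left out at each end. The floor, 119.866, is the signal that 14553 of 36701 non-control probe sets reached on their highest array, the number the design text says passed its filters. A probe set was measured in a comparison if 1 of its 2 arrays reached it. A change was called at 2-fold. Symbols came from the platform annotation, and 0 needed updating. Names with _f, _r, _i or _x before _at mark probe sets that can cross-hybridise, which entered a gene's median only where no other was measured. Error was read as the SD of a log2 ratio between 2 probe sets of 1 gene, which holds no variation between repeat cultures. Named were the 10 genes, siRNA targets, known targets, list genes with the largest ratios and the 2 nearest profiles. The genes and lists were chosen with earlier results of these data known. Steps ran in Python 3.11.15 and were tested on simulated data.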

Additional observations from a re-analysis of the deposited data

How the results depend on the processing

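Across 12 alternatives of scaling, floor, low signals and probe set use, 430 values of the log2 ratios of the 10 genes moved by less than the SD between probe sets of a gene, 49 moved by more, and 0 called ratios changed sign. Tnfrsf13b and Lgr4 were 2-fold lower with siRNA at 2 h in all 12, Enah only in 2 (-1.15 to -0.86). Median scaling moved the log2 IL-3 ratio at 2 h from 1.43 to 1.25 for Lgr4 on U74B and from 0.47 to 0.70 for Tox on U74C. With the floor doubled 3 genes, in place of 8, were higher with IL-3 at 2 h and 3, in place of 7, lower with siRNA. At a 3-fold threshold these counts were 1 and 1. The share of all genes called under each other setting is not given here, so the counts in this section are only a description. At 30 min the count higher with IL-3, 1, was 2 with median scaling or the floor halved, 3 with signals not raised, with a pseudocount of 32 or at 1.5-fold, and 0 on U74A and U74B only or at 3-fold. The count lower with siRNA, 1, was 3 with the floor halved or signals not raised, 2 at 1.5-fold, and 0 with quantile scaling, on U74A and U74B only or at 3-fold. In Stat5 siRNA cells the count higher than unstimulated at 2 h, 0, was 1 with the floor halved, a pseudocount of 32 or 1.5-fold, and 2 with signals not raised. With the floor halved the gene was Kazn (1.16 in log2), with the pseudocount Hbegf (1.67), and with signals not raised both. Their unstimulated signals were under the floor. The only measured Tox probe set is on U74C, so Tox had no value on U74A and U74B only. Why the other counts moved was not tested. All 10 genes had every measured probe set lower with siRNA at 2 h, or 9 with quantile scaling, on U74A and U74B only or without probe sets that can cross-hybridise. The choice fixed most of this count. For Tnfrsf13b, C3ar1, Lgr4, Trio, Lama5 and Kazn the only measured probe set was the one selected for being lower. Tox counted as lower at -0.02. By gene, 49.5% of all genes lay below 0 in that comparison. No paired analysis was possible because each condition has 1 array per design. Signal over background limits C3ar1, Trio, Lama5, Kazn, Hbegf and Slfn2.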
